A study of Mus musculus with 2 samples.

Results

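The 7 genes described here encode the core of the MHC class II pathway, and they were taken by name from the 27998 genes of the count matrices: H2-Aa, H2-Ab1, H2-Eb1, H2-DMa, H2-DMb1, Cd74 and Ciita. They were read in droplet-based single-cell RNA profiles of jejunal crypts, where the stem cells of the gut epithelium reside. Both libraries came from male mice aged 12 months with a whole-body knockout of miR-375 (375KO), 1 mouse per library, called replicate 1 and replicate 2. The line was made by CRISPR/Cas9 in FVB x B62J hybrid embryos and then backcrossed to B6 albino mice, and the labels give the strain as C57BL6/2J. All groups compared below therefore share the knockout, no wild-type library was analysed here, and nothing below measures an effect of losing miR-375.

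MHC class II molecules are paired alpha and beta chains that carry peptides from ingested proteins to the cell surface, where CD4+ T cells read them. The invariant chain, encoded by Cd74, holds the groove of a new class II molecule closed until proteases such as cathepsin S trim it, and the H2-DM heterodimer then exchanges the remaining fragment for a peptide. CIITA is the master coactivator of these genes, is induced by interferon gamma, and acts through the X and Y boxes of their promoters. Class II is best known from B cells, dendritic cells and macrophages, but enterocytes and crypt stem cells of the small intestine also carry it.

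The 5 H2 genes lie in the MHC on chromosome 17 (mm10 build). H2-Ab1, the beta chain of the I-A molecule, lies at chr17:34257689-34269419 on the plus strand, and H2-Aa, its alpha chain, at chr17:34282744-34287823 on the minus strand. H2-Eb1, the beta chain of the I-E molecule, lies next to them at chr17:34305867-34316674. The H2-DM chains are encoded at chr17:34119541-34139101 (H2-DMa) and chr17:34153072-34160230 (H2-DMb1). Ciita lies on chromosome 16 (chr16:10480059-10528418), and Cd74 is also outside the MHC.

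RefSeq promoter windows on GRCm38.p6 were found for 4 of the 7 genes. The 120 bases before the start of H2-Aa (chr17:34287824-34287943, minus strand) and of H2-Eb1 (chr17:34305747-34305866, plus strand) are printed because each holds an X match before a Y box, an X2 match in H2-Aa and an X1 match in H2-Eb1, and because H2-Eb1 differed widely between the mice. Capitals mark exact matches to a Y box (TGATTGG), the core of an X1 box (AACTGATG) and an X2 box in cyclic AMP response element form (TGACGTCA).
H2-Aa: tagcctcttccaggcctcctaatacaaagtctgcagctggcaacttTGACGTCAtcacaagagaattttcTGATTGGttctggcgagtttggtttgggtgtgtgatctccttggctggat
H2-Eb1: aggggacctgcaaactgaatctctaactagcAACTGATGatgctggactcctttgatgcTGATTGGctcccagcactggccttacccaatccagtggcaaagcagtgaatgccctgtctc
The X match and the Y box were separated by 16 bases in H2-Aa, 20 in H2-Eb1 and 21 in H2-DMb1. Read on both strands, the Y box letters occurred in 7.82% of all 32851 promoter windows, the X1 letters in 0.776% and the X2 letters in 1.79%. A window with an X1 or X2 match followed by a Y box within 40 bases was rarer, with 14 of 32851 (0.0426%), among them H2-Aa, H2-Eb1, H2-DMb1 and H2-Eb2. Neither of the 2 H2-DMa windows held these letters, which were chosen after the member sequences had been read, and a match or its absence says nothing here about binding.

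The authors kept 2082 cells of replicate 1 (2032 epithelial and 50 annotated as intraepithelial lymphocytes, IEL) and 1193 of replicate 2 (1175 and 18). The median depth was 16475 and 15232 unique molecular identifiers (UMIs, each standing for 1 captured RNA molecule) per cell, and the median mitochondrial share was 10.2% and 5.55%. No cell barcode was shared. The cells fell into 10 annotated types: stem, transit-amplifying (TA), enterocyte, goblet progenitor, goblet, secretory progenitor, Paneth, enteroendocrine (EEC), tuft and IEL. Of 54 marker genes, 48 were highest in the type they name in both mice, and the exceptions were Ascl2, Atoh1 and 4 proliferation genes. Goblet progenitors were not part of this count. The 8 IEL markers were also used by the authors to name clusters, so they are no independent check of that label. The libraries capture polyadenylated RNA, so mature miR-375 could not be used to check the genotype.

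Class II transcripts were counted in every epithelial type, and their level was graded from enterocytes through stem and TA cells to the mature secretory cells. The summed level of the 7 genes, in UMIs per 1000000 (CPM), was 2141 in enterocytes of replicate 1 and 2630 in those of replicate 2, a mean of 2385 ± 346 (SD, n = 2 mice for every mean given here). Stem cells held 1287 and 1277 CPM (1282 ± 6.99), and TA cells 835 and 1007 CPM (921 ± 121). Goblet progenitors followed with 888 and 529 CPM. Secretory progenitors had 589 and 361 CPM, EEC 377 and 441 CPM, and tuft cells 409 and 375 CPM. Goblet cells had 264 and 268 CPM, and Paneth cells, which store antimicrobial peptides in granules, 11.9 and 34.8 CPM. Enterocytes ranked first and stem cells second in both mice, also after scaling by TMM factors, whereas the order of TA cells and goblet progenitors differed between the mice.

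The place of Paneth cells depended on the scaling. Defa24, a defensin gene, alone held 357834 and 296842 CPM there, and the TMM factors of Paneth cells were 0.156 and 0.121, against 0.952 to 1.59 in the other types. On the TMM scale the summed level in Paneth cells was 76.8 CPM in replicate 1, still the lowest of the 9 types, but 288 CPM in replicate 2, where it was above goblet cells (282 CPM), secretory progenitors (281 CPM) and tuft cells (264 CPM).

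**Figure D1:**
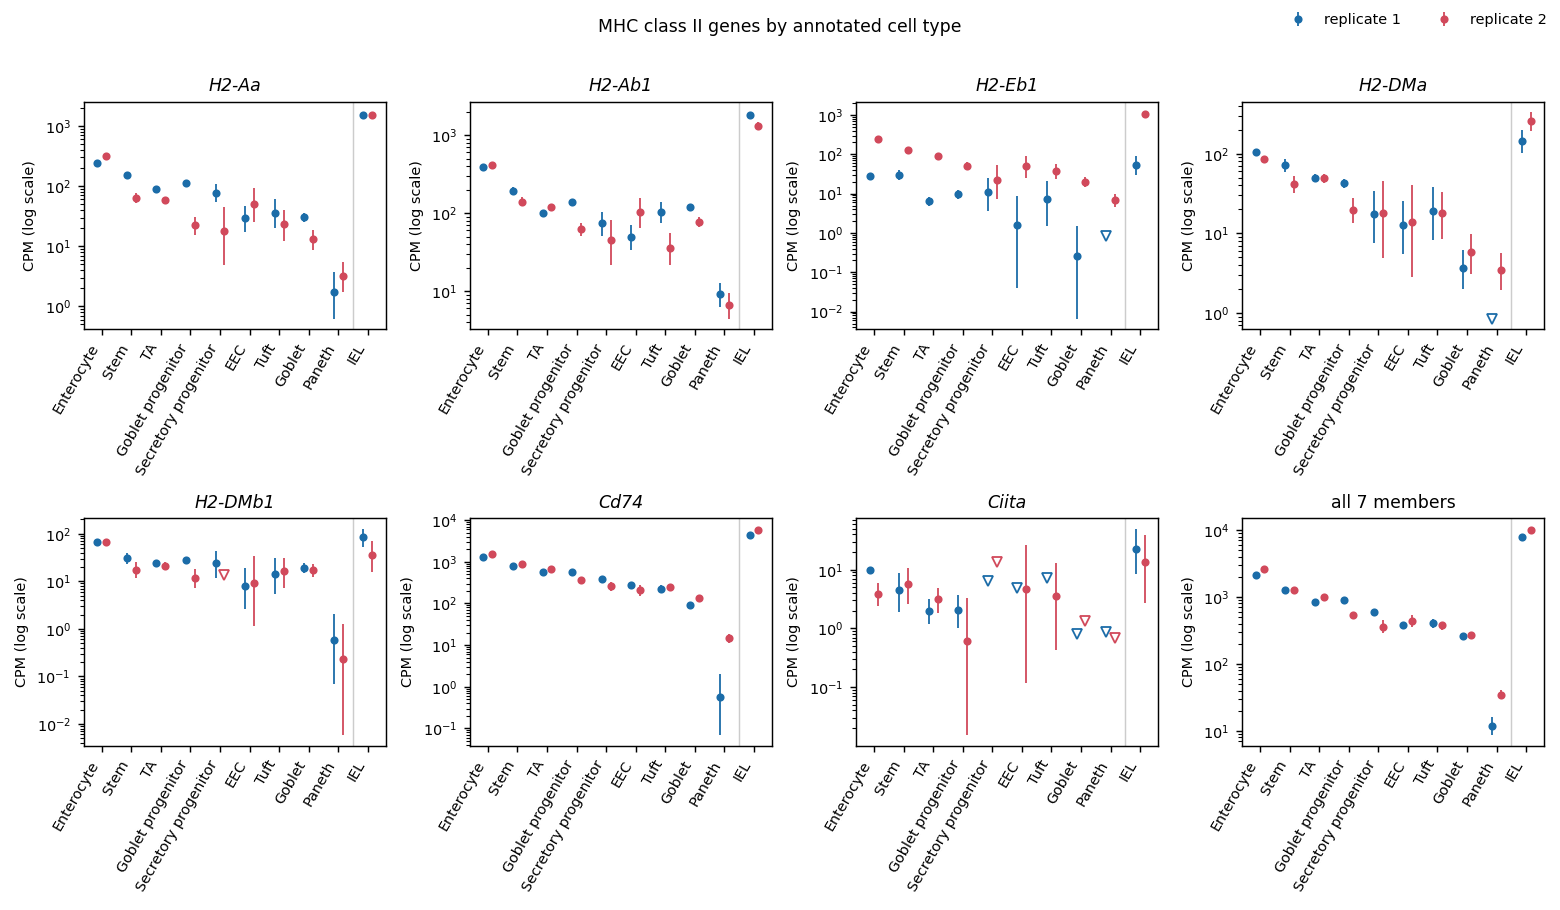
Level of each member and of their sum (CPM, log axis) in the 10 annotated cell types, with 1 point per mouse and exact Poisson 95% intervals; open triangles mark the level that a count of 0 allows. Enterocytes lie highest among epithelial types for the summed level (2141 and 2630 CPM), and H2-Eb1 is lower in replicate 1 than in replicate 2 in each type.

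Cd74, the invariant chain, followed the same order. Its level was 1306 and 1497 CPM in enterocytes (1401 ± 135), 804 and 883 CPM in stem cells (843 ± 55.7), and 563 and 666 CPM in TA cells (615 ± 73.2). It was 90.9 and 135 CPM in goblet cells. The values of these 3 types, enterocytes, stem and TA cells, did not overlap.

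The I-A chains were read at lower counts. H2-Ab1 was at 384 and 409 CPM in enterocytes (397 ± 17.4), at 193 and 140 CPM in stem cells and at 100.1 and 120 CPM in TA cells. H2-Aa was at 241 and 316 CPM in enterocytes (279 ± 52.9), at 154 and 63.6 CPM in stem cells and at 89.7 and 59.5 CPM in TA cells. Only the enterocyte values of both genes stood above every other epithelial value; the stem and TA values overlapped for H2-Aa. The peptide exchange chains were also highest in enterocytes, with H2-DMa at 105 and 86.4 CPM and H2-DMb1 at 65.5 and 66.2 CPM in enterocytes, against 71.2 and 41.8 CPM and 30.8 and 17.5 CPM in stem cells.

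Ciita, the coactivator, was detected at few UMIs. Enterocytes held 189 UMIs in replicate 1 (9.76 CPM) and 21 in replicate 2 (3.93 CPM), stem cells 8 and 9 UMIs (4.48 and 5.61 CPM), and TA cells 17 and 18 UMIs (2.01 and 3.15 CPM). Goblet and Paneth cells held 0 UMIs in both mice, which allows up to 0.793 and 1.34 CPM in goblet cells and up to 0.853 and 0.687 CPM in Paneth cells. Secretory progenitors also held 0, which allows up to 6.52 and 13.4 CPM and so does not separate them from stem cells at this depth.

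To compare shares of cells, each cell was thinned to 5000 UMIs, which left out 7 epithelial cells of replicate 1. At least 1 class II UMI remained in 92.6% and 95.7% of stem cells, 83.8% and 88.2% of TA cells, 93.3% and 92.9% of enterocytes and 55.8% and 59.4% of goblet cells. In Paneth cells the share was 10.3% and 11.1%. It cannot serve as a floor for stray RNA in other types, because thinning removed a larger part of the UMIs of Paneth cells. Their median depth was 44684 and 80820 UMIs, against 12282 and 12559 in stem cells, and defensin transcripts take up much of it. Before thinning, 41.0% and 53.7% of Paneth cells held a class II UMI. H2-Aa, H2-Ab1 and Cd74 were detected together in 46.5% and 36.9% of enterocytes, 23.5% and 13.7% of stem cells, 19.4% and 13.0% of TA cells and in 0 of 78 and 0 of 54 Paneth cells. Summed over the 7 genes, Cd74 included, stem cells had a median of 4 and 5 UMIs per thinned cell and a maximum of 38 and 31. The 14 and 12 stem cells with the most of these UMIs held 39.6% and 32.8% of them. Cd74 was detected in 86.0% and 92.3% of thinned stem cells, but H2-Ab1 in 47.1% and 35.0% and H2-Aa in 34.6% and 22.2%.

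Counts summed per mouse and type were then tested with edgeR. The types had been defined by the authors on the same cells, so these tests describe how far annotated classes stand apart. Against the mean of the other 8 epithelial types, 7 of 7 members were higher in enterocytes, in a contrast in which 31.3% of the 11013 genes tested were called higher and 23.2% lower. The log2 fold changes lay between 2.53 ± 0.22 (SE) for H2-Ab1 and 4.26 ± 0.63 for Ciita, with a median of 2.59 against 0.03 over all genes, and they were positive in both mice. H2-Aa differed by 3.10 ± 0.34 (adjusted p = 5.1e-05) and Cd74 by 2.65 ± 0.34 (adjusted p = 0.00015). The value of Ciita depends on the prior count, because several of the other types held no UMI of it.

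In stem cells 4 of 7 members were called higher than the mean of the other 8 epithelial types, where 15.4% of all genes were called higher and 10.1% lower. H2-DMa differed by 1.39 ± 0.33 on the log2 scale (adjusted p = 0.0076), H2-Eb1 by 1.62 ± 0.39 (adjusted p = 0.012), Cd74 by 1.51 ± 0.37 (adjusted p = 0.017) and Ciita by 3.37 ± 0.96 (adjusted p = 0.012). The Ciita value rests on 8 and 9 UMIs in stem cells and depends on the prior count here too. In each mouse alone it was 1.91 and 1.85. H2-Ab1 (0.79 ± 0.26, adjusted p = 0.0502), H2-DMb1 (0.64 ± 0.27, adjusted p = 0.080) and H2-Aa (1.10 ± 0.42, adjusted p = 0.097) did not pass. Without the mouse as a term only Ciita and H2-DMa passed, and the adjusted p of H2-Eb1 was 0.565, the highest of its 8 alternatives (the lowest was 4.7e-15, with no filter on low counts). The contrast averages over Paneth and goblet cells with their low levels, and without Paneth cells 3 of 6 members tested passed.

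**Figure D2:**
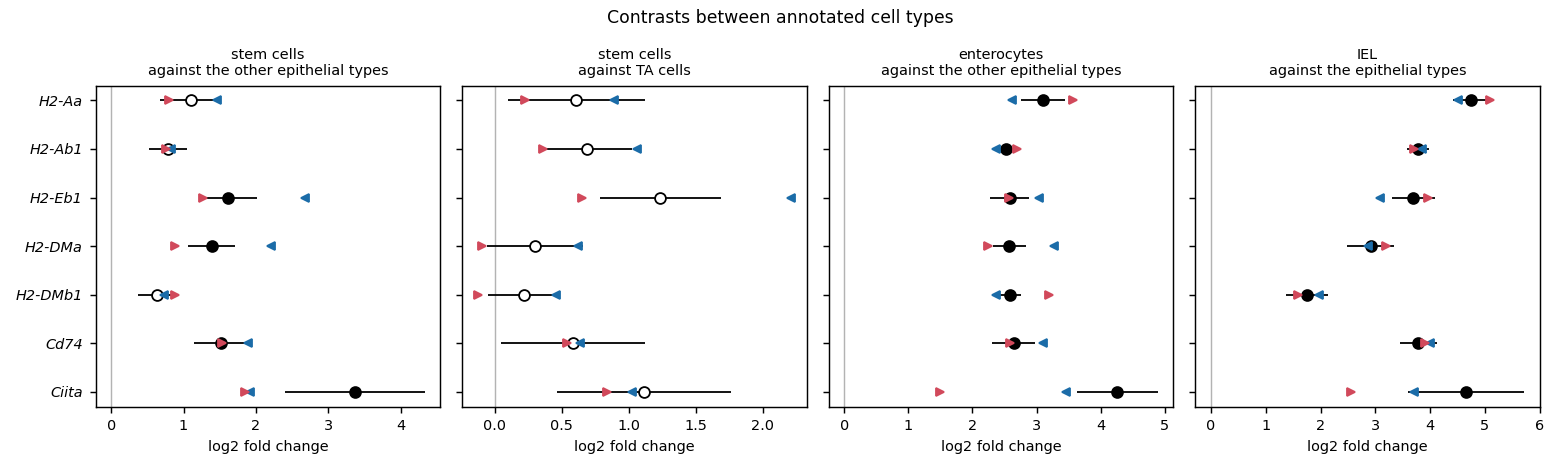
Log2 fold change of each member in 4 contrasts between annotated types; circles with bars give the edgeR estimate and its SE, filled where the adjusted p was under 0.05, and blue and red triangles give the value in replicate 1 and replicate 2 alone. All 7 members lie right of 0 and are filled in the enterocyte and IEL panels, 4 are filled in the first panel and 0 in the panel of stem against TA cells.

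Between stem cells and TA cells, their direct descendants, edgeR called 0 of 7 members, against 1.9% of all genes higher and 2.93% lower. The estimates were positive for all 7, from 0.22 ± 0.27 for H2-DMb1 to 1.24 ± 0.45 for H2-Eb1, with H2-Eb1 as the 1 member at an unadjusted value under 0.05. DESeq2 also called 0. In replicate 2 alone H2-DMa and H2-DMb1 lay slightly below 0 (-0.09 and -0.13). After thinning to 5000 UMIs, which also reduced the number of genes tested to 8254, H2-Ab1 (0.75), H2-Eb1 (1.11) and Cd74 (0.66) passed with adjusted p of 0.021, 0.0094 and 0.016. Over the 8 alternatives the adjusted p ranged from 0.021 to 0.895 for H2-Ab1, from 3.1e-05 to 1 for H2-Eb1 and from 0.016 to 1 for Cd74.

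Immune transcripts in epithelial cells were measured beside these levels, because immune cells carry abundant class II RNA. The 12 genes of dendritic cells and macrophages, Lyz2 among them, summed to between 0 and 30.2 CPM over the epithelial types of replicate 1. In replicate 2 they summed to between 2.24 and 68.1 CPM, and the highest value was in Paneth cells in both mice. The 6 B cell genes in the matrices summed to 0 to 7.25 CPM and 0.458 to 28.6 CPM. The 8 IEL genes reached 36.8 CPM in enterocytes of replicate 1 and 1281 CPM in the 20 EEC of replicate 2. With every epithelial cell holding a UMI of 12 immune marks left out, 1887 and 1018 epithelial cells remained, and 7 of 7 members were still called higher in enterocytes and 5 of 7 in stem cells.

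The enterocyte class joined 5 of the authors' clusters, and class II differed several-fold among them. Clusters are given as a description, since they were formed on the same cells. The summed level was 4240 and 5129 CPM in cluster 9, 3245 and 5146 CPM in cluster 1, 1593 and 2173 CPM in cluster 3, 1284 and 1266 CPM in cluster 2 and 749 and 1007 CPM in cluster 6. The highest was 5.66 times the lowest in replicate 1 and 5.11 times in replicate 2, and clusters 1 and 9 led in both mice. H2-Aa spanned the widest range, 12.8-fold and 17.9-fold, and H2-DMa a narrow one, 2.42-fold and 3.25-fold. Stem cells (1287 and 1277 CPM) were at the level of cluster 2.

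The enterocyte markers and class II ordered the clusters differently. All 6 markers were highest in cluster 1 and lowest in cluster 2 in both mice, and their summed level was 59029 and 52777 CPM in cluster 1, 39966 and 20616 CPM in cluster 3, 11930 and 5296 CPM in cluster 6, 9577 and 8189 CPM in cluster 9 and 2275 and 789 CPM in cluster 2. Fabp1, the liver-type fatty acid binding protein of absorptive cells, was at 39426 and 31536 CPM in cluster 1 but at 1729 and 1491 CPM in cluster 9, although the summed class II level was high in both. Cluster 6 had more Fabp1 (8468 and 3990 CPM) than cluster 9 and the lowest class II sum. Sis, the sucrase-isomaltase of the brush border, was at 3250 and 2179 CPM in cluster 1, 3098 and 1837 CPM in cluster 3, 2248 and 1493 CPM in cluster 9, 1611 and 682 CPM in cluster 6 and 759 and 198 CPM in cluster 2. After thinning, H2-Aa, H2-Ab1 and Cd74 were found together in 87.9% and 77.6% of the cells of cluster 9 and in 68.8% and 76.4% of those of cluster 1, but in 11.9% and 4.94% of those of cluster 6.

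**Figure D3:**
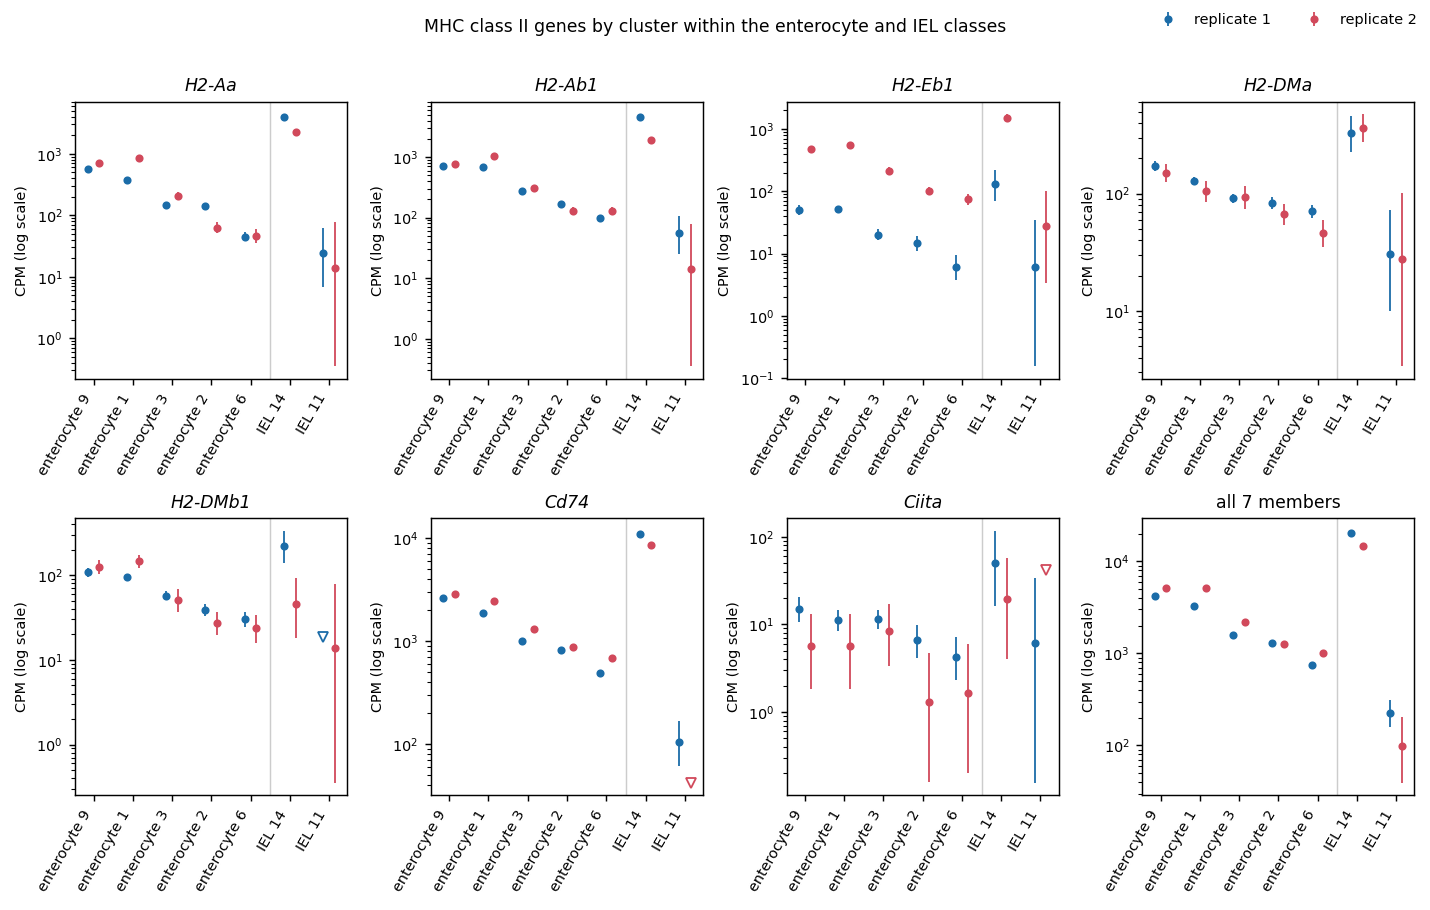
Level of each member and of their sum (CPM, log axis) in the 5 clusters of the enterocyte class and the 2 of the IEL class, with 1 point per mouse and exact Poisson 95% intervals; open triangles mark the level that a count of 0 allows. Enterocyte clusters 9 and 1 lie above the rest, and the 2 IEL clusters lie at opposite ends, 20403 and 14637 CPM in cluster 14 against 228 and 97.8 CPM in cluster 11.

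The highest level of all was read in the cells annotated as IEL, with 7929 and 10021 CPM, and 7 of 7 members were called higher than in the mean of the 9 epithelial types, in a contrast with 16.4% of 11402 genes called higher and 13.6% lower. The log2 fold changes lay between 1.76 ± 0.39 for H2-DMb1 and 4.75 ± 0.34 for H2-Aa. Under the stricter cell filter, which left 1 IEL sum, H2-DMb1 and Ciita no longer passed, with adjusted p of 0.42 and 0.083. H2-DMb1 was also lost after thinning, with an adjusted p of 0.60, and the lowest values over the alternatives were 6.1e-05 for H2-DMb1 and 2.0e-05 for Ciita.

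Judged by Cd3g and the leading genes, the label IEL did not hold for the cells that carried this signal in replicate 1. In replicate 2 the label was in doubt for these cells. Cluster 11, with 28 and 5 cells, was led by the T cell and cytotoxic genes Ccl5, Gzma and Cd3g, and Cd3g was detected in 28 of 28 and 5 of 5 of its cells, but its class II level was 228 and 97.8 CPM. Cluster 14, with 22 and 13 cells, had 20403 and 14637 CPM, and Cd3g was detected in 0 of 22 and 4 of 13 cells. In replicate 1 it was led by Tyrobp, Ly6d and Lyz2, of which Tyrobp was detected in 22 of 22 cells and Lyz2 in 2. Siglech, a surface receptor of plasmacytoid dendritic cells, was detected in 19 of 22 and 4 of 13 cells. In replicate 2 they included Jchain, Cd52 and Tyrobp, and the B cell gene Cd79a was detected in 9 of 13 cells but in 0 of 22 cells of replicate 1. Within cluster 14 the class II level per cell ranged from 0 to 61179 CPM in replicate 1 (median 13390) and from 0 to 50136 CPM in replicate 2 (median 11222). Its cells are called cluster 14 here.

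The balance between partner genes differed among cell types, and it was unlike that of enterocytes, stem and TA cells in goblet cells, which secrete the mucus layer. H2-Ab1 made up 56.8% (95% exact binomial interval 53.3 to 60.3) and 36.4% (32.1 to 40.9) of the UMIs of H2-Ab1 and Cd74 in goblet cells, against 22.7% and 21.5% in enterocytes, 19.4% and 13.7% in stem cells and 15.1% and 15.2% in TA cells. The goblet intervals lay above those of these 3 types in both mice. Paneth cells of replicate 1 were higher still, at 94.1% (80.3 to 99.3) of 34 UMIs, and in replicate 2 Paneth cells (31.5%, 22.2 to 42.0) and EEC (32.8%, 21.8 to 45.4) overlapped goblet cells. H2-DMb1 made up 83.7% (74.2 to 90.8) and 74.5% (60.4 to 85.7) of the UMIs of the H2-DM pair in goblet cells, with 72 against 14 UMIs and 38 against 13 UMIs. In enterocytes that share was 38.3% and 43.4%, and in stem cells 30.2% and 29.5%. The intervals of secretory progenitors in replicate 1 (57.9%, 33.5 to 79.7) and of tuft cells in replicate 2 (47.4%, 24.4 to 71.1) overlapped those of goblet cells. Goblet progenitors did not share the goblet balance, with H2-DMb1 at 39.3% and 37.7% of the pair. These shares do not depend on scaling between types, the intervals cover counting error only, and reads of H2-DMb1 and its near-identical neighbour H2-DMb2 may be split uncertainly.

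**Figure D4:**
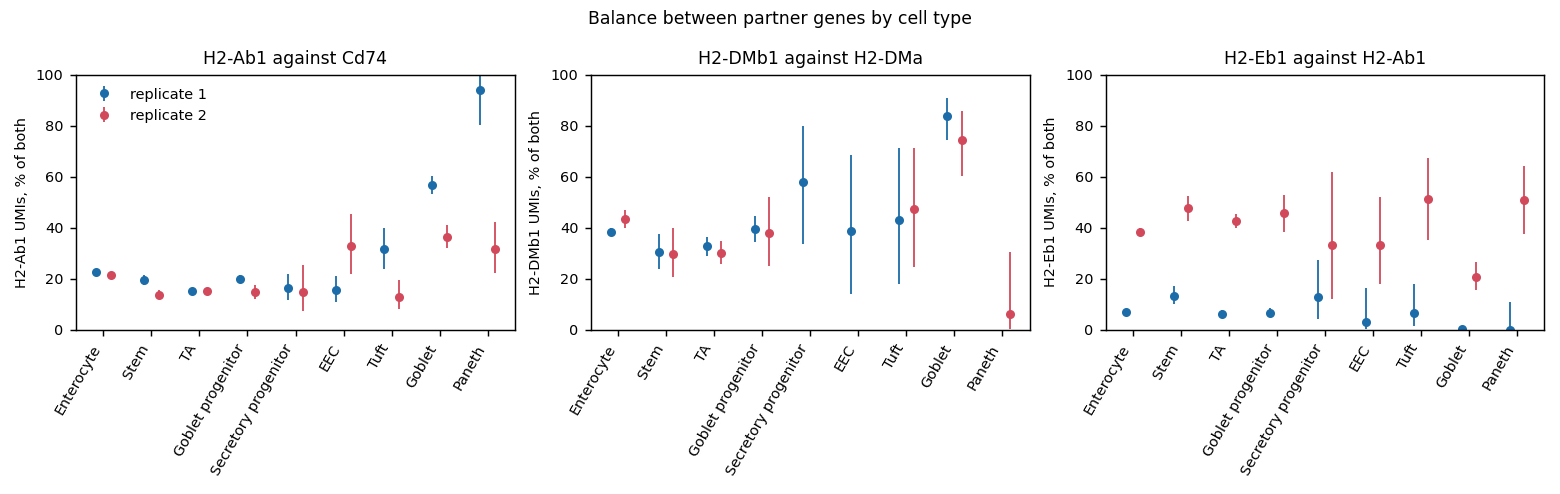
Share of one partner's UMIs in those of a pair (percent, exact binomial 95% intervals) in the 9 epithelial types of each mouse; shares are left out where the pair had too few UMIs. In the H2-DMb1 panel goblet cells (83.7% and 74.5%) lie above enterocytes, stem and TA cells, with intervals that overlap those of secretory progenitors in replicate 1 and tuft cells in replicate 2, and the mice separate in the H2-Eb1 panel.

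Read over all epithelial cells, H2-Eb1 differed more between the mice than the other members did, though not more than every gene of the region. It was at 28.5 CPM in enterocytes of replicate 1 and 252 CPM in those of replicate 2, at 29.7 and 127 CPM in stem cells, at 6.4 and 88.3 CPM in TA cells and at 0.264 and 20.1 CPM in goblet cells. Replicate 2 was higher in 9 of 9 epithelial types, by at least 2-fold in each, and in the IEL class too (53.3 and 1038 CPM). The 9 types include secretory progenitors, with 5 UMIs in each mouse and overlapping intervals. They also include Paneth, EEC and goblet cells, with 0, 1 and 1 UMIs in replicate 1. Over all epithelial cells H2-Eb1 was at 16.5 CPM (721 UMIs) and 103 CPM (2252 UMIs), a 6.23-fold difference and a log2 ratio of replicate 1 over replicate 2 of -2.64 (95% interval -2.76 to -2.52, counting error only). With 1 library per mouse this difference has no test.

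The log2 ratio of replicate 1 over replicate 2 over all epithelial cells, which pools 931 enterocytes of 2032 cells in replicate 1 with 382 of 1175 in replicate 2, was 0.54 for H2-Aa (148 against 102 CPM), 0.53 for H2-Ab1 (228 against 157 CPM), 0.69 for H2-DMa and 0.29 for Cd74 (806 against 658 CPM), and none of these reached 2-fold in the same direction in 5 of 9 types. Within enterocytes H2-Aa (-0.39), H2-Ab1 (-0.09) and Cd74 (-0.20) were lower in replicate 1 and H2-DMa (0.29) was higher. H2-Aa and H2-Ab1 were higher in replicate 1 in 6 of 9 types, H2-DMa in 5 and Cd74 in 3. Of the 5 members that reached 50 CPM, H2-Eb1 alone met that rule, which 3.78% of 2644 genes met with replicate 2 higher and 6.28% with replicate 1 higher. As a share of the UMIs of H2-Eb1 and H2-Ab1, H2-Eb1 made up 6.91% (6.36 to 7.48) in enterocytes of replicate 1 and 38.1% (36.5 to 39.7) in those of replicate 2, and 13.3% and 47.5% in stem cells. Summed over the 7 genes the epithelial level was 1309 and 1089 CPM, and the sign of that small difference changed with the cell filter and the weighting of types.

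**Figure D5:**
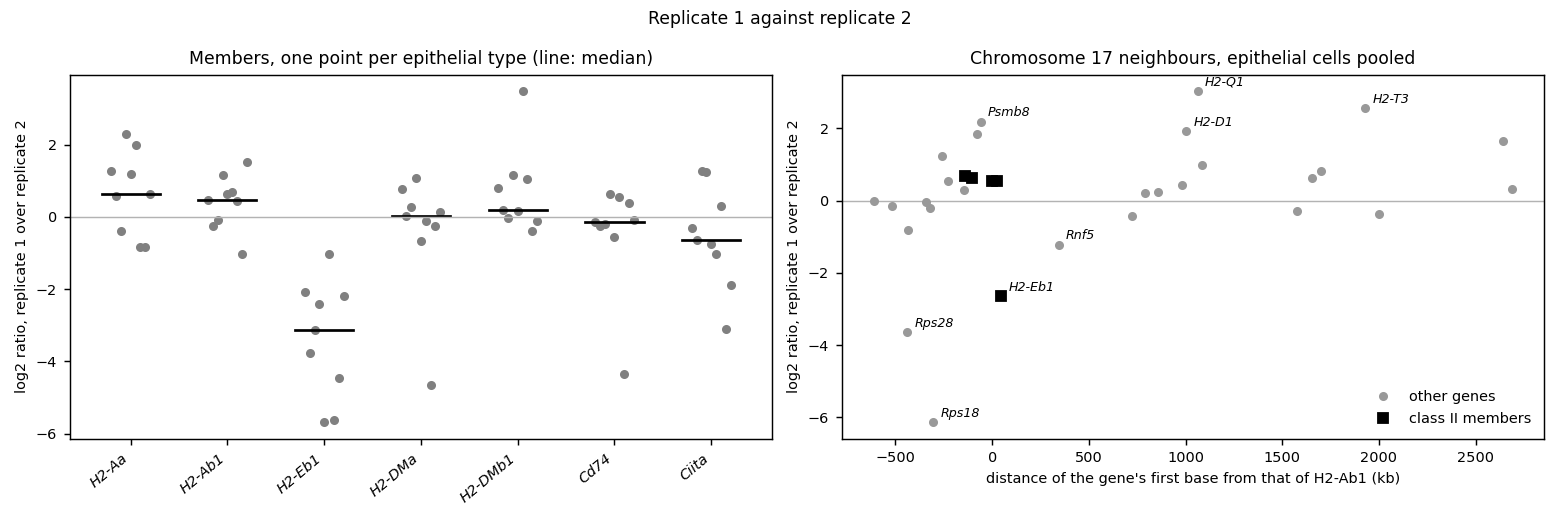
Left, log2 ratio of replicate 1 over replicate 2 for each member (with 0.5 added to each count), 1 point per epithelial type and a line at the median; right, the same ratio over pooled epithelial cells for genes reaching 50 CPM and the members on chromosome 17, against their distance from H2-Ab1 in kb. H2-Eb1 lies below 0 in 9 of 9 types, and Rps18 and Rps28 lie lowest among its neighbours.

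Other genes around the class II locus also differed between the mice, in both directions. On chromosome 17 from 33 to 37 Mb, 10 of 31 genes reaching 50 CPM, H2-Eb1 among them, met the rule above (32.3%, against 10.1% of all 2644 genes). Rps18, a ribosomal protein gene at chr17:33951999-33956001, was at 68.5 CPM in replicate 1 and 4782 CPM in replicate 2, and Rps28, another, at 153 and 1907 CPM. Rnf5, a ubiquitin ligase gene, was at 49.8 and 116 CPM. Ndufa7 (264 and 461 CPM) and Lsm2 (85.0 and 114 CPM) followed but did not meet the rule. Gm10260, a copy of Rps18 on chromosome 13, went the other way, with 702 and 12.8 CPM, and both summed to 771 and 4795 CPM.

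Higher in replicate 1 were genes of MHC class I and of the immunoproteasome, which makes peptides for class I. H2-Q1 was at 58.5 and 7.11 CPM, H2-T3 at 202 and 34.2 CPM and H2-D1 at 805 and 213 CPM. Psmb8 was at 382 and 83.5 CPM and Psmb9 at 213 and 59.4 CPM. H2-DMb2, the class II gene beside H2-DMb1, fell under the 50 CPM limit, but its counts separated in the same direction, with 288 UMIs in enterocytes of replicate 1 (14.9 CPM) and 2 UMIs in those of replicate 2 (0.374 CPM). In the IEL class H2-DMb2 was lower in replicate 1, with 45.7 and 231 CPM. The MHC haplotype of each mouse is not given in the sources used here, and its part in these differences was not tested.

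The genes that serve class II were compared across types with the same fits. In enterocytes 14 of the 23 pathway genes tested, out of 34 listed, were called higher and 3 lower, beside 31.3% and 23.2% of all genes in this contrast. Of the genes that receive interferon gamma, 6 of 7 tested were called higher. Among them Ifngr2, a receptor chain, differed by 1.89 ± 0.12 on the log2 scale, the kinase Jak2 by 1.21 ± 0.16, the receptor chain Ifngr1 by 1.15 ± 0.13, the transcription factor Irf1 by 0.99 ± 0.15 and the feedback inhibitor Socs1 by 1.94 ± 0.81. Socs1 had an adjusted p of 0.045 and passed in 3 of 7 alternatives. Ifng itself held 0 to 2 UMIs in each epithelial type and 3 and 0 UMIs in the IEL class.

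Among the proteases that cut antigen and invariant chain, Ctss (cathepsin S) was higher in enterocytes by 2.78 ± 0.16, Ctsb by 1.13 ± 0.10, Ctsd by 0.91 ± 0.12 and the thiol reductase Ifi30 by 0.99 ± 0.12. Ctsl (cathepsin L) was lower by 1.09 ± 0.24, at 7.02 and 6.17 CPM against 19.1 and 11.8 CPM in stem cells. Ctss was at 76.0 and 81.5 CPM in enterocytes, 35.9 and 28.7 CPM in stem cells, 27.0 and 23.6 CPM in TA cells and 4.5 and 10.7 CPM in goblet cells. Its order over these 4 types was the order of the summed class II level. The factors that recruit CIITA were mixed in enterocytes, with Rfxank (1.01 ± 0.24) and Nfyc (0.55 ± 0.17) called higher and Nfyb (-1.25 ± 0.16) and Creb1 (-0.48 ± 0.15) called lower, 2 in each direction of 7 tested, which is near the shares over all genes. March8, a ubiquitin ligase that removes surface proteins, was higher by 1.28 ± 0.14, and H2-DMb2 by 1.84 ± 0.37, with 1.98 in replicate 1 alone but 0.19 in replicate 2.

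In stem cells 3 of 23 pathway genes tested were called, beside 15.4% of all genes higher and 10.1% lower. Ctss was called higher (1.02 ± 0.23) and March8 (-0.95 ± 0.23) and Jak2 (-1.01 ± 0.28) lower. The median over all 23 pathway genes tested was 0.00, against 1.39 for the 7 members and 0.03 for all genes. Against TA cells, where 1.9% of all genes were called higher and 2.93% lower, Ctsl alone was called, 1.41 ± 0.36 higher in stem cells (adjusted p = 0.015), and it passed in 5 of 8 alternatives.

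The IEL class joins a cluster led by T cell genes with the cluster that carried the high class II level. For the latter the label IEL did not hold in replicate 1 and was in doubt in replicate 2. The fits took these clusters together, so the calls below are not assigned to intraepithelial lymphocytes, and a split by cluster was not tested. In the IEL class 12 of 26 pathway genes tested were called higher and 1 lower, beside 16.4% and 13.6% of all genes in this contrast. They included H2-Oa, a chain of the H2-O molecule that restrains H2-DM (8.25 ± 0.63), and H2-DMb2 (5.68 ± 1.22). The costimulatory genes Cd40 (6.14 ± 1.17), Icosl (4.19 ± 1.19) and Pdcd1lg2 (7.70 ± 1.23) were called too, as were Ctss (3.85 ± 0.23), Ctsl (4.01 ± 0.43), Ctsb (1.41 ± 0.15), Socs1 (4.95 ± 0.82), Jak1 (1.22 ± 0.22) and Irf1 (0.88 ± 0.33). March8 was called lower (-1.59 ± 0.60). Irf1 rested on replicate 1, with 1.49 there and -0.30 in replicate 2, and passed in 2 of 8 alternatives, and March8 passed in 3 of 8. Several of these genes held almost no UMI in epithelial types, so their fold changes depend on the prior count.

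The pattern over the 9 epithelial types was compared between genes by Pearson's r within each mouse, as a description over points that share libraries. Each member was set against the mean of the other 6. H2-Aa stood at r = 0.97 in replicate 1 and 0.92 in replicate 2, H2-Eb1 at 0.90 and 0.92 and Cd74 at 0.88 and 0.86. H2-Ab1 stood at 0.69 and 0.84, H2-DMa at 0.94 and 0.75, H2-DMb1 at 0.89 and 0.66 and Ciita at 0.84 and 0.66. Of 7492 other genes with a mean of at least 10 CPM, the 10 most like the members by the lower of both r were Hnf4g (0.92), Gss (0.91), Net1 (0.91), Slc51a (0.91), Aprt (0.91), Hdhd3 (0.90), Ndufb4 (0.90), Aadac (0.89), Mgam (0.89) and Pnp (0.89). Hnf4g encodes a nuclear receptor of enterocytes and Mgam a brush border disaccharidase. None of the 34 pathway genes was among the 10, but only those tested with a mean of at least 10 CPM could enter. The closest of these were Ctss, at rank 26 of 7492 (r = 0.98 and 0.87), and Ifngr2, at rank 96 (0.86 and 0.81). The furthest was Nfyb, at rank 7433 (-0.87 and -0.57).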

How the data were processed

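Droplet-based single-cell libraries of jejunal crypts from 2 375KO mice were analysed. The authors aligned reads to mm10 with Cell Ranger 3.0.1 and deposited UMI counts per gene and cell, and processed the cells with Seurat 3.2.1 (versions per the labels). The authors' clusters and cell types were used as given. The mitochondrial medians, and the 25% limit among barcodes not kept, were computed from the mitochondrial genes in the deposited counts. Free RNA was removed with SoupX per the methods, at a stage not given for these matrices. Cells with under 1500 genes, over 25% mitochondrial reads or a doublet call had been left out. Annotations were matched by barcode order and column totals (3275 of 3275 cells). Left out were 2937 cell columns per whole-study file and 6059 barcodes among the doublet calls that come from a different series.

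Counts were summed per mouse and type (at least 10 cells), filtered with filterByExpr, scaled with TMM and tested in edgeR 4.0.16 (quasi-likelihood F test, robust) with terms for type and mouse. Tests were two-sided, with Benjamini-Hochberg adjustment over all genes tested (threshold 0.05, 8 residual degrees of freedom for the 18 epithelial sums and 9 for the 20 sums with IEL). SE was the log2 fold change over the square root of F. Same-numbered sums come from the same mouse, so the mouse was kept as a block. Values of 1 mouse alone used a prior count of 2. Poisson and binomial intervals are exact at 95%, a count of 0 was read as allowing 3 counts, and both cover counting error only. Alternatives were DESeq2 1.42.0, its size factors, no filter, no block, stricter cells (2000 genes, 10% mitochondrial), thinning to 5000 UMIs, and leaving out cells with immune transcripts or Paneth cells. Named are all members, pathway genes past the threshold, the 10 most alike genes, and the 5 genes on chromosome 17 from 33 to 37 Mb that differed most in each direction. A few listed genes are not reported here. The members and lists were chosen with earlier results of these data known. Depth was 64305085 UMIs over 7665 barcodes and 23675011 over 1251. The test was tried on simulated counts first.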

Additional observations from a re-analysis of the deposited data

Results flagged for a closer look

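The barcodes that the authors did not keep also held class II UMIs. In replicate 1, 5583 such barcodes summed to 934 CPM of the 7 genes, with 877 CPM in those under 1500 genes, 708 CPM in called doublets and 2149 CPM in those with 1500 genes or more and over 25% mitochondrial reads. The last group also held 25215 CPM of the enterocyte markers, 214 CPM of the IEL markers and 30.5 CPM of the dendritic cell and macrophage markers, and the barcodes under 1500 genes 4769, 10020 and 821.5 CPM of these lists. In replicate 2, 58 barcodes summed to 257 CPM. These values were flagged because they stand above the limit that a count of 0 allows in barcodes that no comparison used, and stray RNA, damaged cells and immune cells cannot be told apart in them.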

How the results depend on the processing

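The enterocyte and IEL calls kept their direction under every alternative run. Members called in enterocytes were 6 or 7 under each, with H2-Eb1 lost without the replicate block (log2 fold change 2.68, adjusted p 0.096), and Ciita was filtered out under stricter cells, thinning and no Paneth cells. In stem cells 2 to 6 members were called, 2 without the replicate block. Against TA cells 0 members were called except 1 with no filter on low counts and 3 after thinning. Left to 1 mouse, log2 fold changes lay between 1.498 and 3.57 in enterocytes, 0.73 and 2.68 in stem cells, 1.58 and 5.09 in the IEL class and -0.13 and 2.21 against TA cells, where H2-DMa was -0.092 without replicate 1 and 0.62 without replicate 2, and H2-DMb1 -0.13 and 0.46. Without the replicate block the counts of all genes called moved to 1019 of 2815 (stem), 70 of 532 (TA) and 3946 of 6006 (enterocytes). Thinning gave 1865, 3598 and 1326 (from 3418) in the stem, enterocyte and IEL contrasts with fewer genes tested, and no filter gave 834 against TA cells. The median log2 fold change of all genes, 0.03 in the stem, 0.03 in the enterocyte and -0.06 in the IEL contrast, was 0.19, 0.11 and -0.20 after thinning and -0.47 in the IEL contrast under stricter cells.

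The log2 ratio of replicate 1 over replicate 2 for the summed members, 0.27, became -0.026 with types weighted alike, -0.13 with TMM factors, -0.37 under stricter cells, 0.055 after thinning, 0.15 without cells with immune transcripts and 0.075 without Paneth cells. Ciita turned from 1.12 to -0.23, -0.089 and -0.048 with types weighted alike, TMM factors and stricter cells. H2-Eb1 stayed between -3.51 and -2.64. The causes were not tested. With 2 mice, p values rest on cell types sharing 1 spread per gene.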
